A study of Rattus norvegicus with 16 samples.

Results

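The cytosolic ribosomal proteins are the protein part of the ribosome that translates nuclear mRNA. They were taken here as every gene whose symbol has the form Rpl or Rps followed by a number (with an optional letter or paralog digit), together with Rpsa, Rplp0, Rplp1 and Rplp2, leaving out the Rps6k kinases. This rule found 82 of the 17055 genes in the count tables, 49 of the large and 33 of the small subunit. The data were read counts from liver of 48 male Sprague-Dawley rats, 10 weeks old, in 16 poly(A) RNA libraries, each a pool of 3 rats. The 4 groups of 4 libraries were Isoflurane + sepsis (libraries 1 to 4), Isoflurane control (5 to 8), Propofol + sepsis (9 to 12) and Propofol control (13 to 16). Sepsis was made by cecal ligation and puncture, in which the cecum is tied off and pierced so that its contents leak into the abdomen. Control rats had the abdomen opened and the cecum lifted out and put back, and livers were taken 8 h later. Isoflurane, an inhaled anesthetic, was given from induction on in the 2 isoflurane groups. The 2 propofol groups were put to sleep with ketamine and xylazine and then kept asleep with propofol, an intravenous anesthetic, so that every comparison of anesthetics is also one of induction drugs. The 2 anesthetics also carry different series of library names, which cannot be told apart from the anesthetic.

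A ribosome holds 1 copy of nearly every one of these proteins, and their mRNAs are among the most evenly controlled in the cell. Most of these mRNAs begin with a C followed by a run of pyrimidines, the 5′ terminal oligopyrimidine (TOP) tract, through which the kinase mTORC1 controls how well they are translated. The transcription factor Myc raises transcription of many of the genes, and the liver uses much of its ribosome capacity to make plasma proteins.

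The start of these genes is shown because it carries the feature that the family is known for. Sequences are from the RefSeq promoter table for rat build GRCr8, which matched 66 of the 82 genes. The counts were made on build rn5, so the coordinates apply to GRCr8 alone. Each line gives 30 bases on the transcribed strand, 10 before the annotated start and 20 from it on, and the capitals mark the longest run of C and T that touches the 5 bases on either side of the start. The first 5 genes rose under isoflurane in the results that follow, and the last 4 did not pass the test there.
Rplp1 (chr8:71290853-71290882, minus strand): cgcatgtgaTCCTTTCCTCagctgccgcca
Rpl10 (chrX:157205840-157205869, plus strand): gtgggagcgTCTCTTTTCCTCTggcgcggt
Rpl12 (chr3:36661930-36661959, plus strand): aacatccgTCTTTTCggctttcggttcgga
Rps23 (chr2:23814507-23814536, plus strand): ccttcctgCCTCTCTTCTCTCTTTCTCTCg
Rpl36a (chrX:102059439-102059468, plus strand): tataaaCTTCCgttgctgctctagcctctc
Rpl4 (chr8:73566467-73566496, plus strand): TCTTCCTTTTCCTgtgggagcagccgggta
Rpl35a (chr11:81235002-81235031, minus strand): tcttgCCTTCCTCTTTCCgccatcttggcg
Rpl39 (chrX:121195877-121195906, minus strand): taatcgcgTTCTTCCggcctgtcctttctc
Rps4y2 (chr4:183000903-183000932, plus strand): cagCTCTCCTCactcgcttgtgctctggga
The runs were 10 bases long in Rplp1, 13 in Rpl10, 7 in Rpl12, 21 in Rps23 and 5 in Rpl36a, and 13 in Rpl4, 13 in Rpl35a, 7 in Rpl39 and 8 in Rps4y2. Of the 67 start sites of matched members (Rps27a has 2), 24 (35.8%) had a C at the annotated start base followed by at least 4 bases that were each C or T. The same was found in 2.63% of all 33469 start sites in the table. With the C allowed within 5 bases of the start, 61.2% of member starts and 15.7% of all starts matched. Only the transcribed strand was searched, and annotated starts can lie some bases from the true ones. A match describes the letters and is not a shown control site. The 23 tested members with the tract at the annotated start had a median log2 fold change of 0.20 under isoflurane, and the 36 without it had a median of 0.22.

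Libraries held 14199422 to 49937173 reads on genes. Ribosomal protein genes took 1.06% to 1.37% of them. Reads outside annotated genes made up 23.1% to 25.4% of assigned and unassigned reads in Isoflurane + sepsis libraries and 22.4% to 23% in Isoflurane controls, against 22.2% to 23.3% and 21.6% to 22.1% under propofol. Values are given as CPM (counts per 1000000), the reads of a gene relative to all reads on genes of its library, scaled with TMM, edgeR's method of setting libraries to a common level from the bulk of their genes. Library number 8 was the deepest. The albumin gene Alb, the defining product of hepatocytes, had mean CPM of 75514 in Isoflurane + sepsis and 89763 in Isoflurane controls, which places the libraries as liver.

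A small set of members had almost no reads although every cell needs them. Rpl8 and Rplp2, a large subunit core protein and a stalk protein, had 0 reads in all 16 libraries. Rpl7a had 2 reads in all, Rps9 had 4, Rps19 had 18 and Rps6, the small subunit protein that S6 kinase phosphorylates, had 90. Rpl37a had 164 reads and was tested under propofol but not under isoflurane. The mRNA level of these genes was therefore not measured by this counting, and nothing is read from their values. The paralogs Rpl3l, a muscle form of Rpl3, and Rpl39l, a testis form of Rpl39, had 13 and 31 reads. These 9 genes left 73 members for the isoflurane test, with a median of 52276 reads each over the 16 libraries, and 74 for the others. Rpl4, Rplp0 and Rpl3 drew the most reads, with 6.01%, 5.48% and 4.50% of all member reads. Many ribosomal protein genes have processed pseudogenes that share their sequence, so the split of reads among copies is uncertain for the family.

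Under isoflurane, sepsis was accompanied by a small rise across the family. Of 73 tested members, 42 rose and 0 fell (57.5% higher, against 25.7% of the 10361 genes tested), and 70 of 73 had a log2 fold change above 0. The median log2 fold change was 0.20, a fold of 1.15, beside 0.006 over all genes. The called members ranged from 0.18 to 0.37, with adjusted p from 0.00304 to 0.0479 (edgeR quasi-likelihood test, Benjamini-Hochberg over all genes, called below 0.05). In 44 of 73 members every sepsis library lay above every control library (24.3% of all tested genes did so), and in 0 did every one lie below. The p-values measure the spread between pools of rats. In whole liver, a change in the make-up of cells and a change in RNA per cell cannot be told apart.

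The summed CPM of all 82 members shows the same in each library. The sums were 13383, 13980, 12844 and 12245 CPM in Isoflurane + sepsis libraries 1 to 4 and 11772, 11489, 10898 and 11346 CPM in the controls 5 to 8. The groups did not overlap, with library number 4 the lowest of the sepsis group, and the means were 13113 ± 742 and 11376 ± 365 (SD, n = 4), a difference of 15.3%. Under propofol the sums were 12026, 11401, 13240 and 13128 CPM with sepsis and 11589, 12093, 11424 and 11962 CPM in the controls. These groups overlapped, since libraries 11 and 12 lay above every control and library number 10 below all of them, and the means were 12449 ± 888 and 11767 ± 313 (SD, n = 4), a difference of 5.79%.

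**Figure D1:**
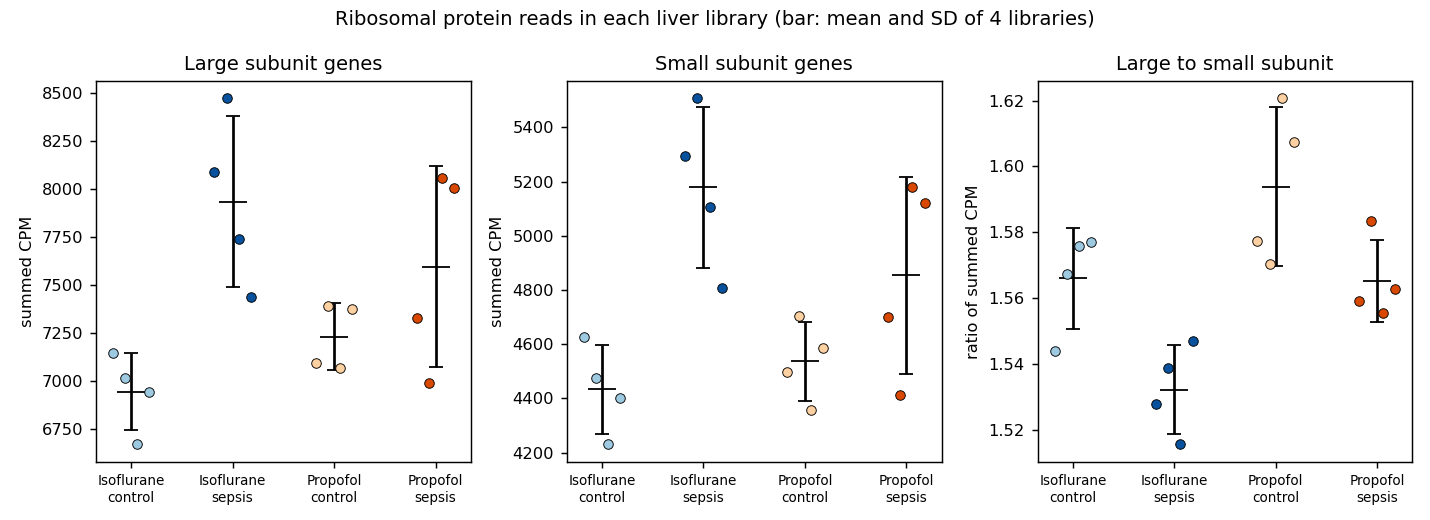
Summed CPM (TMM) of large and small subunit genes and the ratio between them, 1 point a library, with the mean and SD of 4 libraries as a bar. The vertical axes do not start at 0. The 4 Isoflurane + sepsis libraries lie above the 4 Isoflurane controls in both sums, the Propofol + sepsis libraries spread across their controls, and the ratio is a little lower with sepsis under both anesthetics.

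The rise depended in number, and less in size, on how libraries were scaled. With library totals alone, 13 of 73 members rose and 0 fell, all 13 among the 42. This was a smaller share than over all genes, of which 2241 of 10361 were then higher. The members' median was 0.14. The median over all genes was then -0.06, so that members stood 0.20 above it with either scaling. Without a filter on low counts 19 of 80 rose, beside 2473 of 13660 genes. Leaving out sepsis library number 2 left 21 calls of 74 tested, beside 2440 of 10460 genes higher. Control library number 6 left 22 of 74, beside 2199 of 10454 genes. Control library number 7 or 8 left 19 of 73 each, beside 2160 of 10449 and 2133 of 10452 genes. The members' median stayed between 0.17 and 0.24 whichever library was left out. As raw shares of reads the groups overlapped, with 1.13% in library number 4 and 1.15% in control library number 5.

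Genes for proteins of the stalk, the arm of the large subunit that recruits elongation factors, were among those with the largest rise under isoflurane. Rplp1, one of the acidic stalk proteins, had 172, 187, 173 and 169.5 CPM in the sepsis libraries and 145, 136, 125 and 139 CPM in the controls. Every sepsis library was above every control, and the log2 fold change was 0.37 ± 0.07 (SE, adjusted p = 0.00304). Rpl12, which forms the base of the stalk, had 207, 231, 227 and 251 CPM with sepsis and 187, 180.1, 170.2 and 187 CPM without. Its log2 fold change was 0.34 ± 0.08 (adjusted p = 0.00657), and library number 4, the lowest of its group in the family's sum, was here the highest. Rplp0, the scaffold that holds the stalk proteins, rose by 0.27 ± 0.08 on the log2 scale (adjusted p = 0.0183), a call that ended with library totals alone, without a filter, or without library number 2, 7 or 8. Under propofol the values of the stalk genes were 0.14 for Rplp1, 0.10 for Rpl12 and 0.12 for Rplp0, and none passed the test.

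Genes for small subunit proteins rose as well. Rps23, which lies at the decoding center, had 214, 239, 213 and 164 CPM in Isoflurane + sepsis and 180.1, 164, 152 and 169 CPM in the controls. Library number 4 fell among the controls, and the log2 fold change was 0.32 ± 0.12 (adjusted p = 0.0441). This call was lost with library totals alone (adjusted p = 0.105), with no filter, and on leaving out any one of the 8 libraries but number 4. Rpsa, the laminin receptor precursor of the small subunit, rose by 0.18 ± 0.06 (adjusted p = 0.0397), which 8 of 15 alternatives did not call. Rps27a, made as a fusion with ubiquitin, rose by 0.25 ± 0.06 (adjusted p = 0.0111), and missed the threshold with library totals alone (adjusted p = 0.0546).

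In the large subunit, Rpl10, which joins late and checks the finished particle, had 326, 351, 360.4 and 357 CPM in Isoflurane + sepsis and 287, 279.8, 268 and 294 CPM in the controls. All sepsis libraries were above, with a log2 fold change of 0.31 ± 0.07 (adjusted p = 0.00652), and all 15 alternatives called it. Rpl36a had 47.9, 54.5, 52.6 and 47.6 CPM with sepsis and 41.9, 39.9, 39.1 and 38.5 CPM without, a log2 fold change of 0.35 ± 0.07 (adjusted p = 0.00453). Its near-copy Rpl36al, outside the rule, had a log2 fold change of -0.09 (adjusted p = 0.281). Rpl5 and Rpl11 carry 5S rRNA into the large subunit and bind Mdm2 when assembly fails. Rpl11 rose by 0.25 ± 0.06 (adjusted p = 0.0111), though not with library totals alone (adjusted p = 0.0549), and Rpl5, at 0.17 ± 0.07 (adjusted p = 0.0655), did not pass. Rpl3, which reaches the peptidyl transferase center, rose by 0.24 ± 0.07 (adjusted p = 0.0155), and the call ended with library totals alone, without a filter, or without control library number 7.

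**Figure D2:**
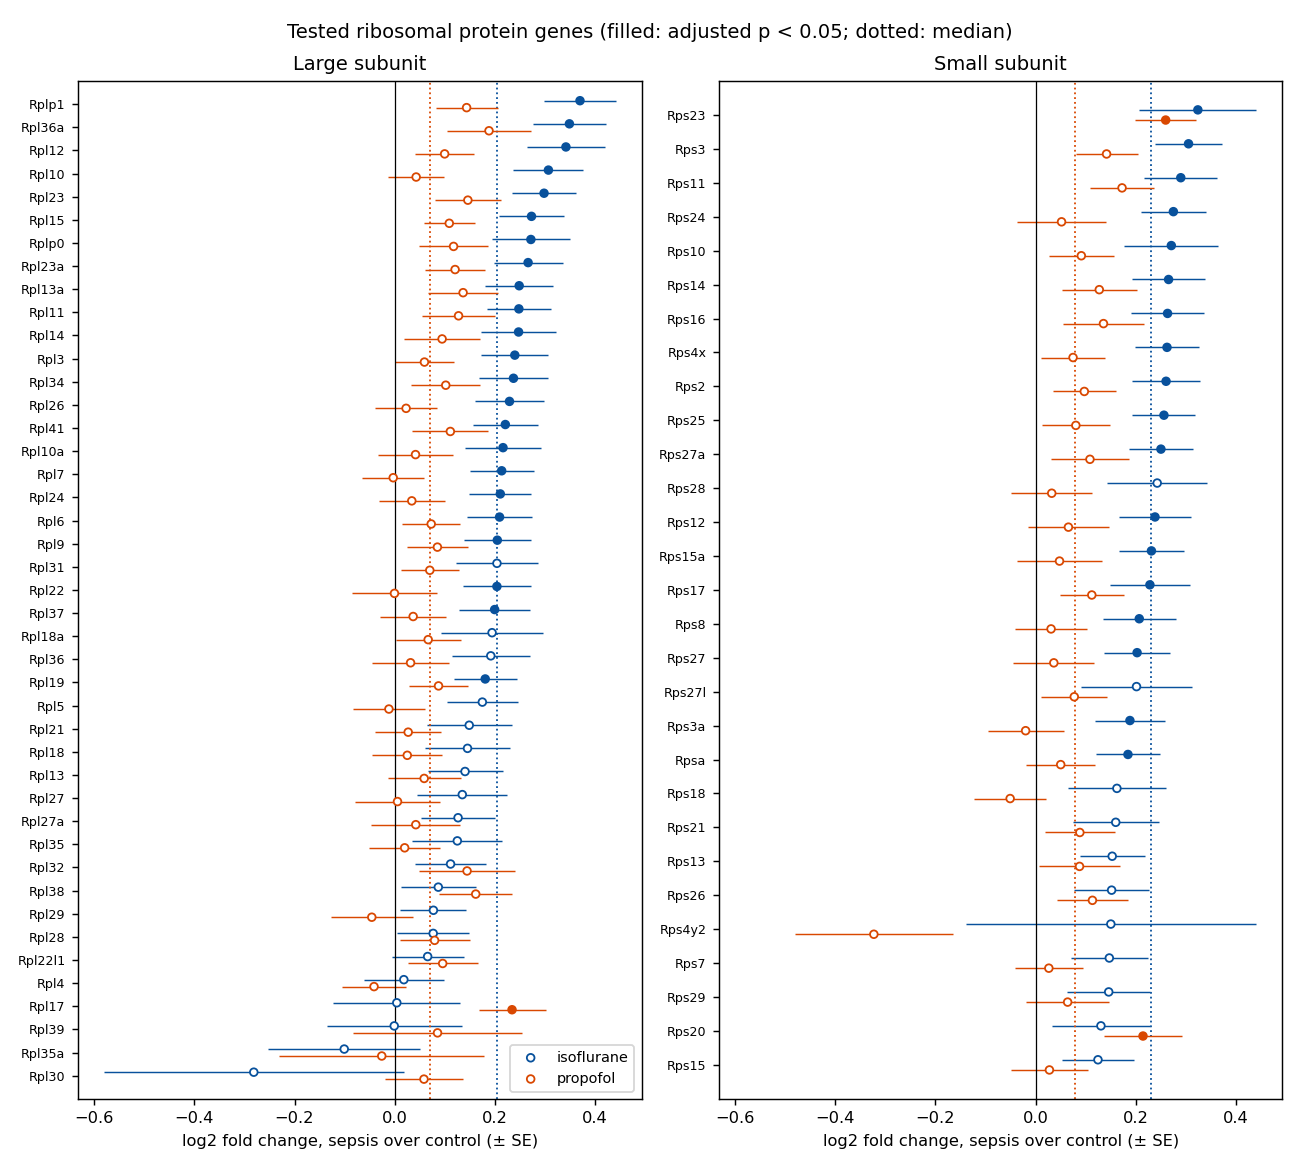
Log2 fold change of sepsis over control with its SE for 72 of the 73 members tested under isoflurane, by subunit, in blue for isoflurane and orange for propofol. Filled points passed an adjusted p below 0.05, dotted lines are the medians, and most blue points lie to the right of 0 and of the orange ones, with Rpl30, Rpl35a, Rpl39, Rpl17 and Rpl4 at the bottom of the large subunit.

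Of the 73 members tested under isoflurane, 31 did not pass, and none was called lower. Those furthest below the shift had values near or below 0. Rpl4, which reaches into the exit tunnel and drew the most reads of the family, had 774, 776, 682 and 636 CPM with sepsis and 720.0, 722, 689.5 and 706 CPM in the controls. Libraries 1 and 2 lay above the controls and libraries 3 and 4 below, so that the log2 fold change was 0.02 ± 0.08 (adjusted p = 0.862). Rpl17, another protein of the tunnel, had 130.4, 175, 199 and 179 CPM with sepsis and 166, 179, 165 and 175 CPM without, a log2 fold change of 0.004 ± 0.13 (adjusted p = 0.982). Library number 1 was its lowest, where the family's sum was high. Rpl30 had 53.0, 50.3, 34.2 and 16.1 CPM in Isoflurane + sepsis and 49.2, 45.5, 43.6 and 48.5 CPM in the controls. Libraries 1 and 2 were above the controls, library number 4 was far below the others, and the log2 fold change of -0.28 ± 0.30 did not pass the test (adjusted p = 0.459). Its coefficient of variation in that group, 44.4%, was the highest of the 73 members, whose median was 6.75%.

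Rpl35a and Rpl39 were the other members with a value below 0, and were chosen after their values were seen, as was the emphasis on Rpl30. Rpl35a, a large subunit protein, had 7.53, 6.90, 6.42 and 4.95 CPM with sepsis and 7.57, 6.29, 7.94 and 6.04 CPM without, a log2 fold change of -0.10 ± 0.15 (adjusted p = 0.606). Rpl39, a very short protein of the exit tunnel, had about 3 CPM in every group and a log2 fold change of -0.001 ± 0.13 (adjusted p = 0.996). Both drew few reads, 2332 and 1090 in all, against the family median of 48928.

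**Figure D3:**
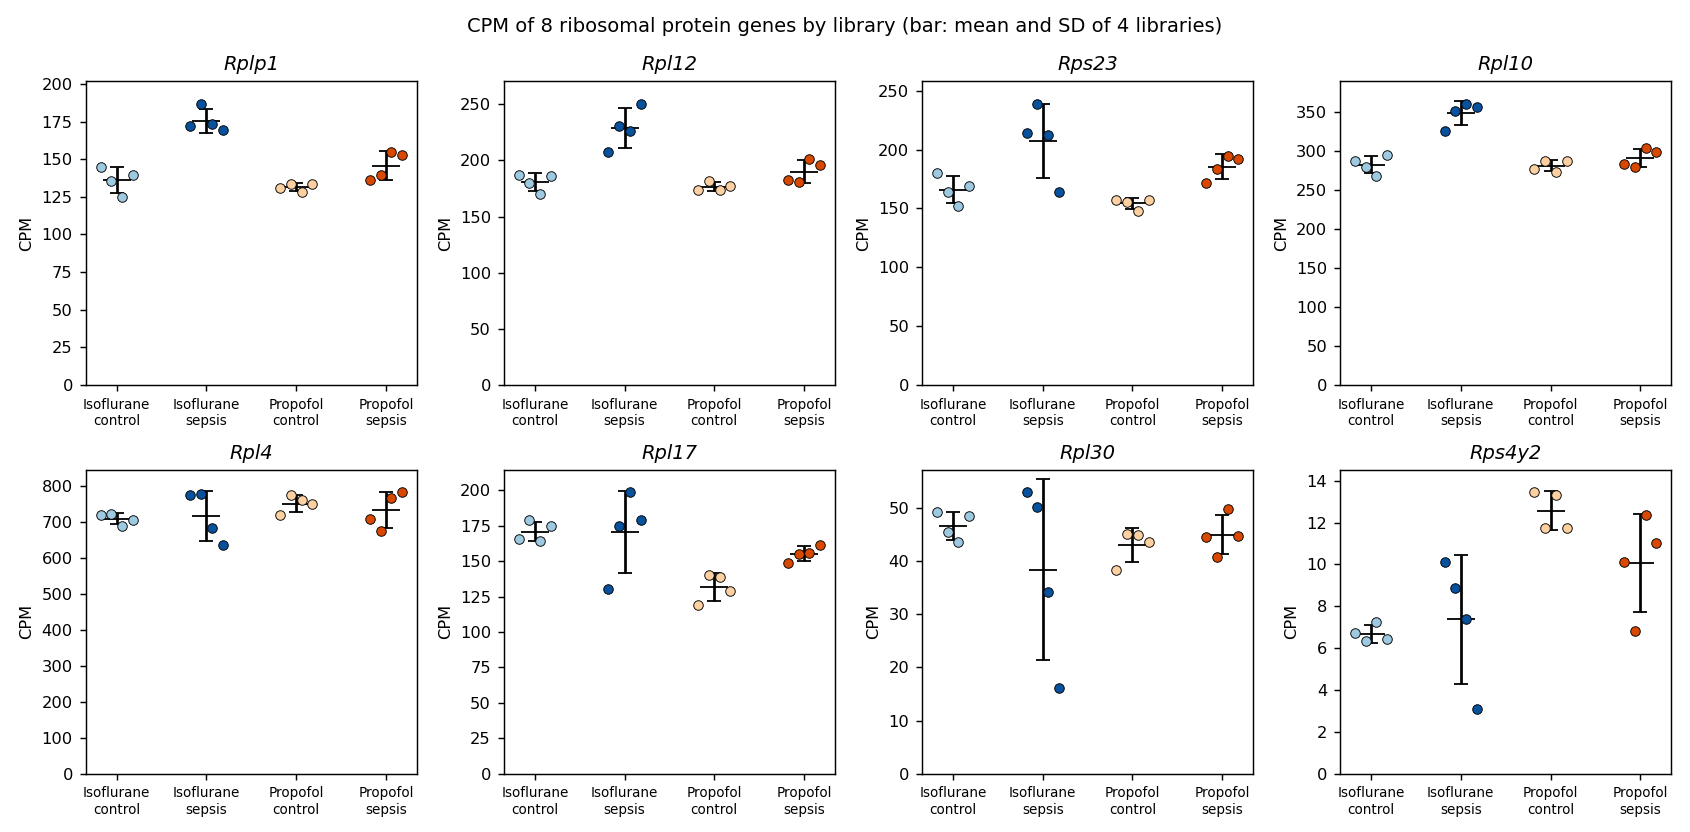
CPM (TMM) of 8 members by library, 1 point a library, with the mean and SD of 4 libraries, on axes from 0. Rplp1, Rpl12 and Rpl10 separate the isoflurane groups, Rps23 does so but for 1 sepsis library, and Rpl4, Rpl17 and Rpl30 do not, with 1 Rpl30 library at 16.1 CPM.

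Under propofol the family moved little. Of 74 tested members 3 rose and 0 fell (4.05% higher, against 20.4% of the 10348 genes tested), and 65 of 74 had a log2 fold change above 0. The median was 0.07, a fold of 1.05, beside -0.002 over all genes. Every sepsis library lay above every control in 8 members (21.1% of all tested genes). At an unadjusted p below 0.05, 8 members were higher, but no share over all genes was taken at that threshold. With library totals alone 2 rose, the median was 0.02 and the median over all genes -0.06. The split over all genes then moved from 2107 higher and 2246 lower to 1675 and 2700. Without library number 10, 14 of 74 members rose, beside 2074 of 10397 genes, and the median was 0.12. Without library number 11 or 12 the median was 0.05. DESeq2 called 6 members, beside 2151 of 10348 genes higher.

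The 3 members that rose under propofol were Rps23, Rpl17 and Rps20. Rps23 had 172, 184, 195 and 192 CPM in Propofol + sepsis and 157, 156, 148 and 157 CPM in the controls, with no overlap and a log2 fold change of 0.26 ± 0.06 (adjusted p = 0.00744). All 15 alternatives called it, and it is the 1 member called under both anesthetics, 1 of 3 under propofol and 1 of 42 under isoflurane. Rpl17 had 149, 155, 156 and 161 CPM with sepsis and 119, 139.9, 139 and 129 CPM without, again with no overlap, and a log2 fold change of 0.23 ± 0.07 (adjusted p = 0.0190). It missed the threshold when all 16 libraries shared 1 fit (adjusted p = 0.0663). Rps20, a small subunit protein of the head, had 162, 147, 186 and 179 CPM with sepsis and 144, 145, 142 and 147 CPM without. Library number 10 reached only the level of the highest control, the log2 fold change was 0.21 ± 0.08 (adjusted p = 0.0486), and 11 of 15 alternatives did not call it, among them every library left out but number 10.

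**Figure D4:**
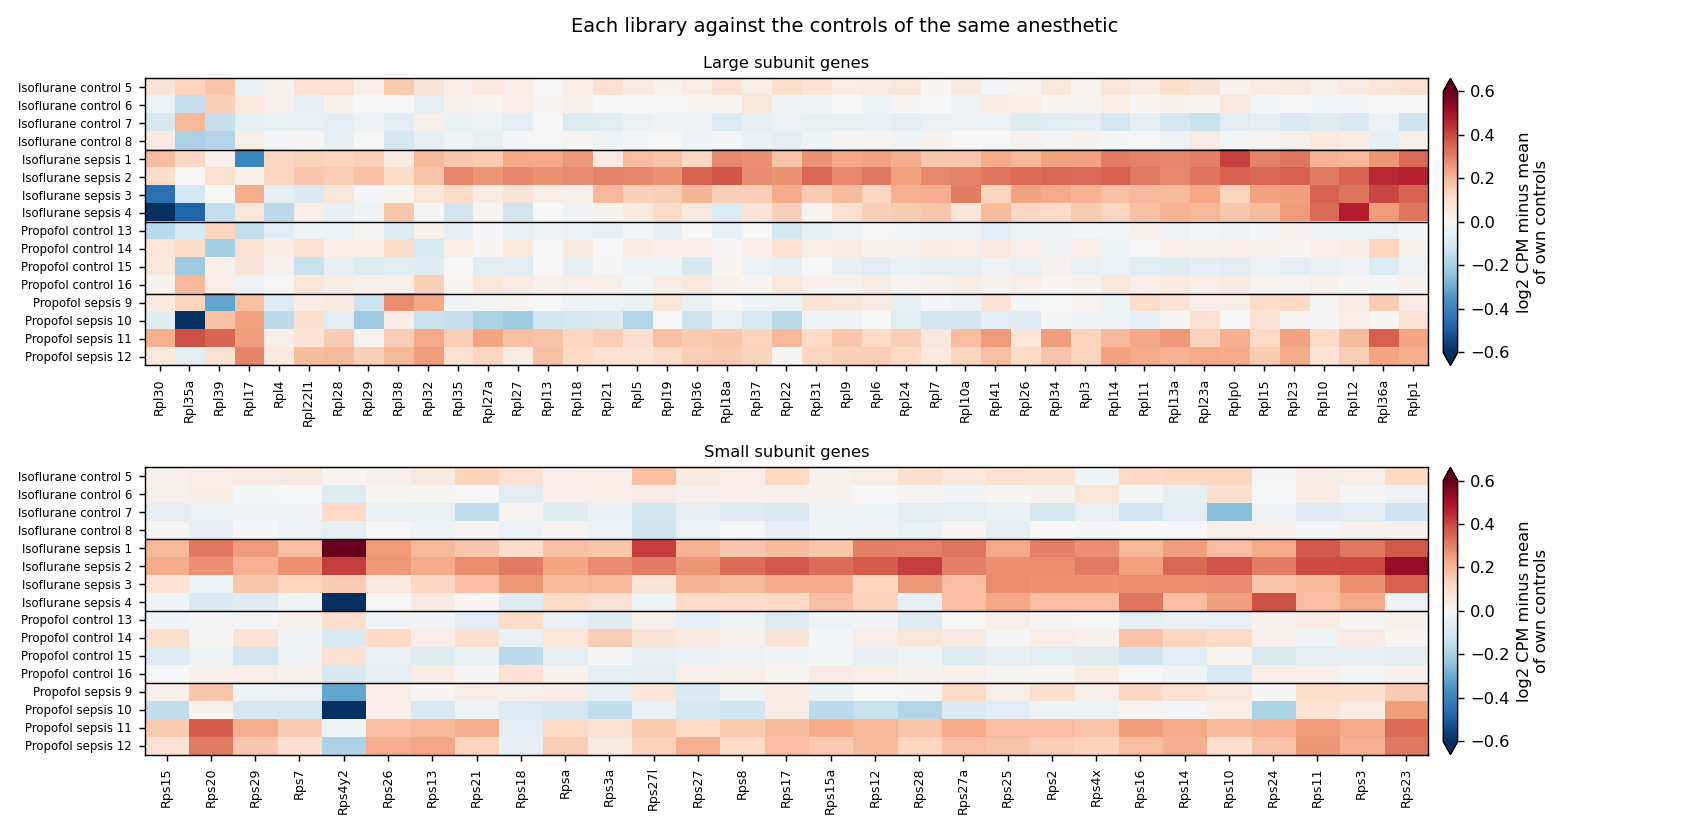
Log2 CPM of 72 of the 73 tested members in each library minus the mean of the controls of the same anesthetic, red above and blue below, with members ordered by their isoflurane log2 fold change within each subunit. Isoflurane + sepsis libraries 1 and 2 are red almost throughout, library number 4 is pale with Rpl30, Rpl35a and Rps4y2 in dark blue, and Propofol + sepsis libraries 11 and 12 are red where library number 10 is mostly pale blue.

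Members of one library moved together. Averaged over the 73 members, Isoflurane + sepsis libraries 1 to 4 stood 0.22, 0.29, 0.16 and 0.05 above their controls on the log2 scale, with 72, 72, 66 and 53 of the 73 members above the control mean. Propofol + sepsis libraries 9 to 12 stood at 0.03, -0.06, 0.18 and 0.15, with 48, 22, 71 and 70 members above. The control libraries stayed between -0.06 and 0.06. Library number 4 thus lay inside the range of its controls, and library number 10 below all of its controls, in the mean over members. The median coefficient of variation of a member was 6.75% and 7.84% in the sepsis groups and 3.66% and 3.40% in the controls of isoflurane and propofol.

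Whether members answered sepsis to a different degree under the 2 anesthetics was tested with an interaction term, fitted to all 16 libraries. The median of the difference (isoflurane minus propofol) was 0.13 on the log2 scale, beside -0.02 over all genes, and 65 of 74 members were above 0. By edgeR 0 of 74 members passed (1.66% of the 10621 genes tested were higher). At an unadjusted p below 0.05, 7 were higher and 0 lower, but no share over all genes was taken at that threshold. DESeq2 called 2 of 74, Rpl10 and Rpl7, beside 508 of 10621 genes higher. By edgeR Rpl10 came nearest, with a difference of 0.25 ± 0.08 (adjusted p = 0.0825). Rpl12 was at 0.23 ± 0.09 (adjusted p = 0.148) and Rpl7, a large subunit protein that binds 5S rRNA, at 0.21 ± 0.08 (adjusted p = 0.141). Without library number 1, Rpl10 and Rpl12 passed, beside 865 of 10708 genes higher. The members with the smallest p in the other direction were Rpl17 at -0.24 ± 0.14 (adjusted p = 0.306), Rpl30 at -0.35 ± 0.33 (adjusted p = 0.531) and Rpl38 at -0.08 ± 0.10 (adjusted p = 0.628). The larger number of calls under isoflurane is therefore not shown to be a difference between the anesthetics for any one member by this test.

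The genes of the 2 subunits moved side by side. Under isoflurane 23 of 43 large and 19 of 30 small subunit genes rose, with medians of 0.20 and 0.23. Under propofol 1 of 44 and 2 of 30 rose, with medians of 0.07 and 0.08. The ratio of summed large to small subunit CPM, which does not depend on how libraries are scaled, was 1.53 ± 0.01 in Isoflurane + sepsis and 1.57 ± 0.02 in its controls, and 1.57 ± 0.01 and 1.59 ± 0.02 under propofol (SD, n = 4). The ratio with sepsis was 2.16% lower under isoflurane and 1.80% lower under propofol, and the groups overlapped in both cases. On the log2 scale the isoflurane change in ratio was -0.03, and it was -0.01 when Rpl4 was left out of the sum.

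Comparisons of the anesthetics share libraries with those of sepsis and are not independent of them. Between controls, 1 member was higher with isoflurane and 1 lower (13% and 13.3% of 10621 genes), and the median was -0.05 beside -0.002 over all genes. Rpl17 was higher, with the control values given above and a log2 fold change of 0.38 ± 0.10 (adjusted p = 0.0114), but not with library totals alone (0.23, adjusted p = 0.0824). Rps4y2 encodes a small subunit paralog of Rps4x and may share reads with it. It had 6.72, 6.34, 7.25 and 6.42 CPM in Isoflurane controls and 13.5, 11.8, 13.3 and 11.8 CPM in Propofol controls. The groups were far apart, with a log2 fold change of -0.91 ± 0.24 (adjusted p = 0.0124) that 22 of 22 alternatives called. In Isoflurane + sepsis Rps4y2 had 10.1, 8.89, 7.41 and 3.08 CPM, from above to below all its controls, and in Propofol + sepsis 10.1, 6.83, 12.3 and 11 CPM. Rps4x, its partner named after the values were seen, was at 120.6 ± 4.24 CPM in Isoflurane controls and 120.0 ± 4.21 CPM in Propofol controls (SD, n = 4). Rpl41, one of the shortest proteins known, was at 0.17 ± 0.07 (adjusted p = 0.0862) and Rpl38 at 0.16 ± 0.07 (adjusted p = 0.112). On the other side Rpl7 was at -0.15 ± 0.06 (adjusted p = 0.0552) and Rpl6 at -0.16 ± 0.06 (adjusted p = 0.0577). With library totals alone the median of all genes moved to -0.15. Then 34 members were lower and 0 higher, beside 2814 and 688 of 10621 genes. The members' median stood 0.05 below that of all genes with either scaling. DESeq2 called 2 higher and 5 lower, beside 1551 and 1538 of 10621 genes.

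Between septic livers, 9 members were higher with isoflurane and 0 lower (19.6% and 19% of 10621 genes), and the median was 0.06 beside -0.01 over all genes. Rpl10 had the smallest p, with 0.26 ± 0.06 (adjusted p = 0.00271), followed by Rplp1 with 0.27 ± 0.06 (adjusted p = 0.00472) and Rps25, a small subunit protein used by viral internal ribosome entry sites, with 0.25 ± 0.06 (adjusted p = 0.00488). With library totals alone the direction of the count turned, with 0 higher and 5 lower, beside 1151 and 3463 of 10621 genes. The median of all genes then moved to -0.16. Relative to all genes the members' median was 0.07 higher with either scaling. The median was 0.03 without library number 10, where it stood 0.02 above that of all genes, 0.04 without library number 2, 0.09 without library number 4 or 12 and 0.10 without library number 11. Without library number 9 or 10, 5 members were higher, beside 1708 of 10700 and 2259 of 10659 genes. Without a filter 5 were higher, beside 1909 of 14087 genes. Without library number 4, 15 were higher, beside 1882 of 10694 genes. Those with the smallest p in the other direction were Rps4y2 at -0.45 ± 0.25 (adjusted p = 0.164), Rpl13 at -0.10 ± 0.07 (adjusted p = 0.320) and Rpl18 at -0.10 ± 0.08 (adjusted p = 0.336).

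The paralogs did not pass under sepsis. Rps27l, a p53 target next to the constitutive Rps27, had a log2 fold change of 0.20 ± 0.11 under isoflurane (adjusted p = 0.161) and 0.08 ± 0.07 under propofol (adjusted p = 0.369). Rpl22l1, which can take the place of Rpl22, was at 0.07 ± 0.07 (adjusted p = 0.472) and 0.10 ± 0.07 (adjusted p = 0.295). Rps4y2 was at 0.15 ± 0.29 (adjusted p = 0.687) and -0.32 ± 0.16 (adjusted p = 0.124). Without library number 4 its isoflurane value was 0.41 and passed (adjusted p = 0.0198), and without library number 1 it was -0.04.

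**Figure D5:**
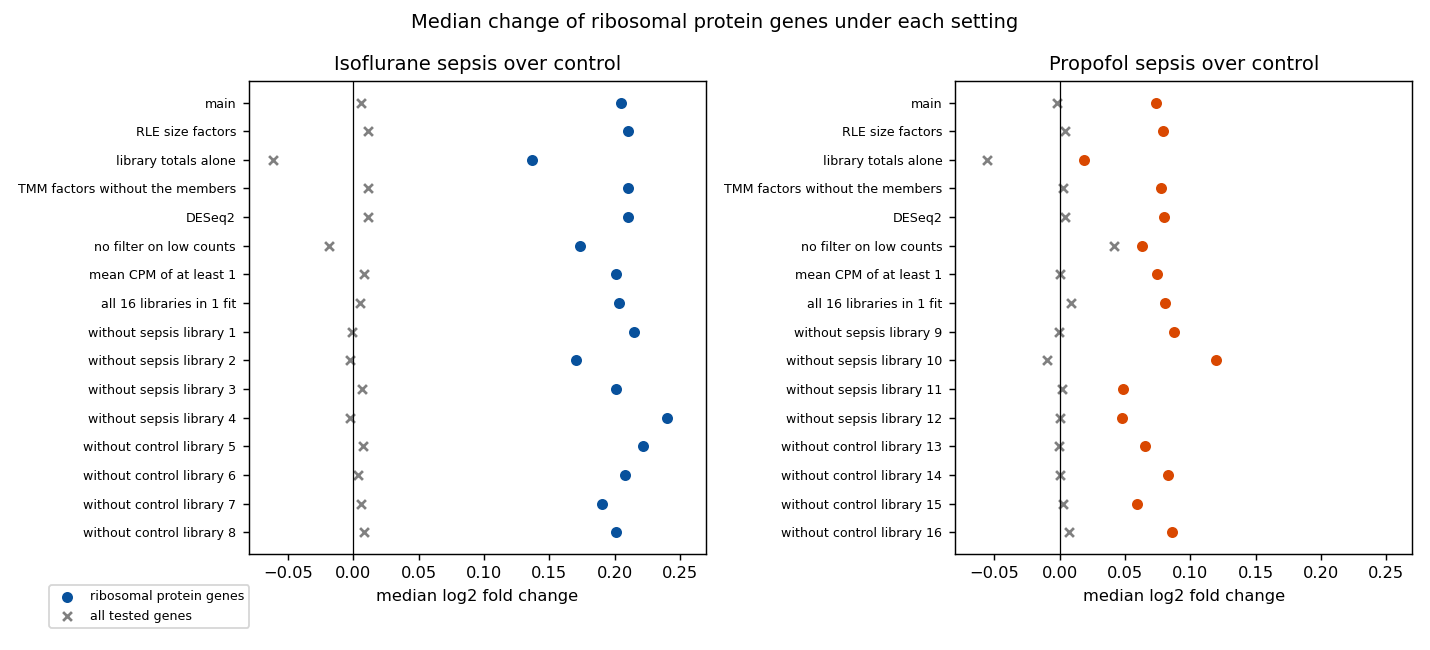
Median log2 fold change of members (points) and of all tested genes (crosses) under each scaling, tool and filter and with each library left out. Under isoflurane the member median stays between 0.14 and 0.24, and under propofol between 0.02 and 0.12, and both move with the median of all genes when libraries are scaled by totals alone.

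Other genes with TOP mRNAs were counted from a list of 23 outside the rule. Of 22 tested, 13 rose and 0 fell under isoflurane (median 0.22), where 25.7% of all genes were higher. Under propofol 3 rose and 0 fell (median 0.02), where 20.4% of all genes were higher. Npm1, a nucleolar chaperone of ribosome assembly, rose by 0.69 ± 0.08 (adjusted p = 0.000347) and Pabpc1, the poly(A) binding protein, by 0.40 ± 0.07 (adjusted p = 0.00154) under isoflurane. Eif3a, the largest subunit of initiation factor eIF3, rose by 0.51 ± 0.10 (adjusted p = 0.00321), and Vim, an intermediate filament protein of mesenchymal cells and leukocytes, by 1.13 ± 0.17 (adjusted p = 0.000815). The 3 that rose under propofol were Nap1l1, a histone chaperone, by 0.63 ± 0.09 (adjusted p = 0.000547), Vim by 0.62 ± 0.13 (adjusted p = 0.00376) and Pabpc1 by 0.18 ± 0.06 (adjusted p = 0.0244). Npm1 and Eif4b, a helper of the helicase that opens mRNA, passed the test of the difference between anesthetics, both at 0.52 ± 0.12 (adjusted p = 0.0354 and 0.0403). Npm1 was already lower with isoflurane between controls, at 183 against 279 CPM (-0.61 ± 0.08, adjusted p = 0.000152). Between septic livers it was at 295 and 314 CPM (-0.09 ± 0.08, adjusted p = 0.388). Eif4b was at -0.07 ± 0.09 between controls (adjusted p = 0.578) and at 0.45 ± 0.09 between septic livers (adjusted p = 0.00157). Ybx1, also in the list, had 0 reads.

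Of 23 tested genes of the mTORC1 and Myc axis, 7 rose and 5 fell under isoflurane, beside 25.7% and 24.4% of all genes, and 5 rose and 3 fell under propofol, beside 20.4% and 21.7%. As a group they thus lay near the shares of all genes. Myc rose under isoflurane by 1.45 ± 0.30 (adjusted p = 0.00411) and was at -0.58 under propofol (adjusted p = 0.213). The difference between the responses narrowly passed the test (2.01 ± 0.51, adjusted p = 0.0473). Its libraries were widely spread, from 26.4 to 123 CPM in Propofol controls and from 55.9 to 156 CPM in Isoflurane + sepsis. With isoflurane Myc was already lower between controls (-1.06 ± 0.36, adjusted p = 0.0401), and it was higher between septic livers (0.95 ± 0.36, adjusted p = 0.0453). Max, the partner of Myc, rose under both, by 0.44 and 0.43 (adjusted p = 0.00613 and 0.00413). Eef2k, the kinase that slows elongation by phosphorylating eEF2, fell by 1.14 ± 0.13 under isoflurane (adjusted p = 0.000229) and fell by 0.88 ± 0.15 under propofol (adjusted p = 0.00131). Sesn1, an inhibitor of mTORC1, fell under both, at -0.38 ± 0.09 and -0.46 ± 0.13 (adjusted p = 0.00627 and 0.0170). Other inhibitors rose under isoflurane: Ddit4 by 2.35 ± 0.68, Sesn2 by 0.58 ± 0.17 and Tsc1 by 0.48 ± 0.14 (adjusted p = 0.0182, 0.0207 and 0.0174). Ddit4 was widely spread in Isoflurane + sepsis (mean 49.6, SD 53.9 CPM). Tbc1d7, also in the list, fell under isoflurane, at -0.93 ± 0.21 (adjusted p = 0.00669). Ddit4, Sesn2, Tsc1 and Tbc1d7 did not pass under propofol or in the test of the difference. Mxd1, an antagonist of Myc at Max, rose by 0.95 ± 0.25 under isoflurane (adjusted p = 0.0122) and by 1.16 ± 0.14 under propofol (adjusted p = 0.000263), and the difference did not pass (adjusted p = 0.663). Mxd4, of the same family, rose under propofol by 0.40 ± 0.09 (adjusted p = 0.00473) and was at 0.17 under isoflurane (adjusted p = 0.225).

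Of 23 genes for ribosome assembly and surveillance, 8 rose and 1 fell under isoflurane (median 0.13), beside 25.7% and 24.4% of all genes, and 3 rose and 4 fell under propofol (median -0.05), beside 20.4% and 21.7%. Utp20, of the small subunit processome, rose under both, by 0.78 ± 0.08 and 0.60 ± 0.09 (adjusted p = 0.000164 and 0.000642), and so did Eif6, which keeps the subunits apart, by 0.40 ± 0.07 and 0.31 ± 0.06 (adjusted p = 0.0019 and 0.00264). Bop1, needed to process large subunit rRNA, rose by 0.58 ± 0.08 under isoflurane (adjusted p = 0.000513) and by 0.24 ± 0.08 under propofol (adjusted p = 0.0403). Riok2, a kinase of late small subunit maturation, was lower under both, at -0.47 ± 0.09 and -0.60 ± 0.14 (adjusted p = 0.00264 and 0.00632). Rrs1, a large subunit assembly factor, was at -0.70 ± 0.15 under propofol (adjusted p = 0.00509) and at -0.16 under isoflurane (adjusted p = 0.168). Between controls 15 of the 23 were lower with isoflurane and 1 higher (13.3% and 13% of all genes), with Nop56, of the snoRNP core, at -1.05 ± 0.12 (adjusted p = 5.61e-05). Mitochondrial ribosomal protein genes, taken after the data were seen as symbols of the form Mrpl or Mrps and a number, went the other way. Under isoflurane 0 of 66 rose and 42 fell (24.4% of all genes were lower), with a median of -0.36, and under propofol 0 rose and 24 fell (21.7% of all genes were lower), with a median of -0.16.

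Neutrophil and monocyte markers were higher with sepsis. Of 12 tested genes in a list of 15 neutrophil and monocyte markers, 11 rose under isoflurane and 8 under propofol, beside 25.7% and 20.4% of all genes. Their summed CPM was 1441 to 2484 in Isoflurane + sepsis and 196 to 246 in Isoflurane controls, and 1311 to 3406 and 425 to 698 under propofol, mostly from Lcn2, which hepatocytes also make. The granule genes Mpo and Elane, defining for immature neutrophils, had 6 reads each over the 16 libraries. Of 14 lymphocyte markers, summed to between 12.2 and 23.7 CPM in every library, 5 were tested and 3 rose under isoflurane. The 3 that rose, Cd8a, Nkg7 and Zap70, had low group means, from 0.39 to 1.44 CPM. Their lowest Isoflurane control libraries had 0.42, 0.28 and 0.33 CPM, and their lowest Isoflurane + sepsis libraries 0.65, 0.65 and 0.60 CPM. They thus passed the filter on low counts through the sepsis libraries. The count of 3 is therefore partly set by the filter, and nothing about lymphocytes is read from it. Under propofol 4 lymphocyte markers were tested, 0 rose and 2 fell. Of 12 Kupffer and endothelial markers 4 rose and 5 fell under isoflurane, and 2 rose and 3 fell under propofol, with sums of 373 to 538 CPM. Of 15 hepatocyte markers 2 rose and 6 fell under isoflurane, and 4 rose and 3 fell under propofol, with sums of 173761 to 201314 CPM in the isoflurane and 146498 to 160236 CPM in the propofol groups. For lymphocyte, Kupffer and endothelial, and hepatocyte markers these counts came from few genes. Over all genes 25.7% were higher and 24.4% lower under isoflurane, and 20.4% and 21.7% under propofol. The part of these cells in the ribosomal protein values was not tested.

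Over the 16 libraries, the 5 genes outside the family whose log2 CPM followed the log2 summed CPM of the members most closely were LOC687565 (Pearson r = 0.90), Eif3i (0.88), a subunit of eIF3, Tmem88 (0.88), Rnf133 (0.87) and Carhsp1 (0.87), out of 10547 compared. These are the highest of many values over libraries that share their groups and scaling, and are given as a description. Eif3i rose under both anesthetics, by 0.38 and 0.29 on the log2 scale (adjusted p = 0.00335 and 0.0179). Carhsp1, an RNA-binding cold shock domain protein, rose under isoflurane by 0.45 (adjusted p = 0.000448).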

How the data were processed

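Whole-liver RNA of 16 pools of 3 rats was sequenced by the authors from poly(A) selected, stranded, single-end libraries. The submitters' processing notes name STAR and build rn5. For the counting program and the annotation, nothing is stated in those notes or in the methods (not given in the sources used here). The deposited values are raw read counts per gene symbol, 1 file a library, with rows for reads outside genes (21.6% to 25.4%) and ambiguous reads (1.07% to 1.35%), which were left out of library sizes.

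Groups came from the sample titles. Counts were tested with edgeR 4.0.16 (glmQLFit and glmQLFTest) in R 4.3.3 after TMM scaling and filterByExpr (minimum count 10, minimum total 15), with Benjamini-Hochberg adjustment over all tested genes and a threshold of 0.05. Each sepsis comparison was fitted on its own 8 libraries, and the interaction and the anesthetic contrasts on all 16. SE is the log2 fold change over the root of F. Tests were checked on simulated counts. Alternatives were RLE factors, library totals alone, TMM without the members, DESeq2 1.42.0, no filter, mean CPM of at least 1, 1 fit of 16 libraries and leaving out each library. Adjusted p-values carry the spread between pools, whose number per group was 4.

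Members and lists were chosen with earlier results of these data known, and so carry no p of their own. Named members were the 5 largest rises and falls called in each sepsis comparison, members more than 0.5 from the members' median, the 3 smallest p in each direction of the other comparisons, paralogs, the extremes of read number and Rpsa, Rplp0, Rplp1, Rplp2, Rps6, Rpl5, Rpl11 and Rps27a. In other lists up to 4 called genes with the smallest p were named per list, in the sepsis comparisons and the interaction. For the contrasts of anesthetics, genes of those lists were not named by this rule. Ddit4, Sesn2, Tsc1 and Tbc1d7 were added after their values were seen. Cell type markers are given mainly as counts and sums. Start sequences are from RefSeq (GRCr8). Of the members so named, 1 is not reported here and is not drawn in the figures by member, though it is part of the counts, medians and sums.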

Additional observations from a re-analysis of the deposited data

Results flagged for a closer look

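In 3 of 120 groups of 4 libraries checked (named members, their sum and the ratio of subunits), 1 library stood apart from the other 3 by Dixon's test, which chance alone would do in about 5% of groups. Rpl3 had 486 CPM in Isoflurane control library number 7, where the others had 511.9 to 512.4 CPM. Rpsa had 345 CPM in the same library, against 367 to 371 CPM. Rps23 had 148 CPM in Propofol control library number 15, against 156 to 157 CPM. Library number 7 was also the lowest of its group in the sum of all members.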

How the results depend on the processing

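Library totals alone called 13 members under isoflurane, beside 2241 of 10361 genes higher. Between controls 34 members were lower and 0 higher, beside 2814 and 688 of 10621 genes. Between septic livers 5 were lower and 0 higher, beside 3463 and 1151 of 10621 genes. Members' medians were -0.196 and -0.0898 in the last 2 comparisons. Mean sums were then 12188 CPM in Isoflurane + sepsis and 12646 CPM in Propofol controls. Relative to the median of all genes, members stayed 0.173 to 0.243 higher under isoflurane and 0.0211 to 0.129 higher under propofol under every alternative run. Without a filter the counts were 19 under isoflurane and 5 between septic livers, beside 2473 of 13660 and 1909 of 14087 genes higher. DESeq2 called 6 under propofol and 2 for the interaction, beside 2151 of 10348 and 508 of 10621 genes higher. It called 7 between controls, beside 1551 genes higher and 1538 lower. A minimum mean CPM of 1 gave 5 between controls, beside 1332 higher and 1422 lower of 9775 genes. Leaving out Rpl4, an alternative chosen after seeing the data, changed the isoflurane shift in the ratio of subunits to -0.0124. The cause was not tested for any of these.

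Leaving out 1 library gave 19 to 60 calls under isoflurane, 2 to 14 under propofol, 0 to 2 for the interaction, 2 to 5 between controls (5 without library number 4 and 4 without library number 10, which enter the fit through the spread) and 5 to 15 between septic livers. Of the 10397 to 10721 genes tested, 2133 to 2945 were then higher under isoflurane and 1691 to 2074 under propofol. For the interaction 29 to 865 genes were higher, and between septic livers 1585 to 2359.

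Values near 0 changed sign. Under isoflurane Rpl17 became -0.066 with library totals, -0.0297 without a filter and -0.00113 in 1 fit of 16 libraries, and -0.0874 to 0.119 with 1 library left out. Rpl4 became -0.0489 with library totals and -0.0122 without a filter, and -0.0283 to 0.0747 with 1 library left out. Rpl39 became 0.00416 with RLE factors, 0.00452 with TMM without the members and 0.0122 with DESeq2, and -0.0686 to 0.0519 with 1 library left out. Rpl22l1 became -0.00133 with library totals. Without 1 library, Rpl35a ranged from -0.176 to 0.0106 and Rps4y2 from -0.0350 to 0.405. None of these passed the test in any setting run, but for Rps4y2 without library number 4 (adjusted p = 0.0198). No paired analysis was possible because the labels number the samples 1 to 16 and no number is shared between groups. At depths of 14199422 reads or more, 9 members still drew too few reads to be tested under isoflurane and 8 in the other comparisons.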
